A study of Mus musculus with 12 samples.

Results

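The genes described here are 6 genes of red blood cells, followed in bulk RNA sequencing of mouse liver: the alpha-globin genes Hba-a1 and Hba-a2, the beta-globin genes Hbb-bs and Hbb-bt, the heme enzyme gene Alas2 and the membrane gene Slc4a1. They are 6 of the 54532 genes in the deposited expression table, each matched by its symbol, and all 6 passed the filter for testing, a 12-library mean of 0.5 FPKM or more, which 13447 genes passed. FPKM counts read fragments after scaling for gene length and library size. All mice carried the Apoe knockout, which removes apolipoprotein E, a carrier of blood lipids. The 6 control livers came from mice injected with Gfp-AAV, an adeno-associated virus carrying green fluorescent protein, and are numbered 1 to 6. The 6 treated livers came from mice injected with Rspo2-AAV, which carries R-spondin 2, a secreted protein that strengthens Wnt signalling, and are numbered 1, 2, 4, 5, 6 and 7. The promoter of the vectors, their dose, the time after injection and the age, sex and strain of the mice were not given in the sources used here, nor was it said whether each library is a separate animal. The members were chosen from this same contrast, over all libraries and inside the number sets 1 to 3 and 4 to 7, so their values below are a description and carry no test.

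Hemoglobin is a tetramer of alpha and beta chains, each holding a heme group, and its messenger RNAs dominate maturing red cells. Young circulating red cells, the reticulocytes, have lost their nucleus but still carry globin messenger RNA, so a bulk sample of an organ that still holds blood contains some of it. Alas2 makes the erythroid form of the first enzyme of heme synthesis, while Alas1 makes the form used in other tissues, the liver above all. Slc4a1 encodes band 3, the anion exchanger that anchors the red cell skeleton to its membrane and appears as erythroblasts mature. The liver makes red cells in the fetus, and in adults that work belongs to bone marrow and, in mice, spleen.

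Upstream sequences are shown for the globin genes because these genes moved together across the libraries, and for Alas2 because it did not move with them. RefSeq promoter windows (GRCm38.p6) were found for 5 of the 6 members, all but Slc4a1. Each line gives the 250 bases before the RefSeq start, 5′ to 3′ on the gene's own strand. Capitals mark 4 short motifs on either strand. GATAA is the core bound by GATA factors. CACCC is the core bound by Klf1 and its relatives. CCAAT is the box bound by nuclear factor Y. ATATAA is a run like the TATA box.
Hba-a1 (chr11:32283422-32283671, plus strand): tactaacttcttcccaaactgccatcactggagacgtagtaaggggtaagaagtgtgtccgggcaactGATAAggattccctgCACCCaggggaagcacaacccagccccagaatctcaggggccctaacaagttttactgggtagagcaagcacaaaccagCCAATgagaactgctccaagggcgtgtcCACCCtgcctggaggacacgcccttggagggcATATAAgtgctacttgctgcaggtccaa
Hbb-bs (chr7:103827929-103828178, minus strand): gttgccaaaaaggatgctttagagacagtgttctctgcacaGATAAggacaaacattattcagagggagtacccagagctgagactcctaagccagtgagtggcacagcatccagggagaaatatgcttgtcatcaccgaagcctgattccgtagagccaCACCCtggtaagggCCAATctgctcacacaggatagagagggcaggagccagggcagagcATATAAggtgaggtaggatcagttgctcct
Hbb-bt (chr7:103813924-103814173, minus strand): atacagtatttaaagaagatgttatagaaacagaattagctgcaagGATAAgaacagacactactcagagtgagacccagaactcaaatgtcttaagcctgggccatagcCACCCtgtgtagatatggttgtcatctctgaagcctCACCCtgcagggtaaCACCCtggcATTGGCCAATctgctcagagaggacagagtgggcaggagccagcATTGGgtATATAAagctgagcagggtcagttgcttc
Alas2 (chrX:150547167-150547416, plus strand): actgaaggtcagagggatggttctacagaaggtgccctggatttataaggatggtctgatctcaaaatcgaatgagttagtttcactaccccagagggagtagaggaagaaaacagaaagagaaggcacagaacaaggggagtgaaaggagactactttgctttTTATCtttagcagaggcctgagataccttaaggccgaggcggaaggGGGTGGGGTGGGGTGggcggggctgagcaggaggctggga

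The Hba-a2 window (chr11:32296242-32296491, plus strand) is not printed because it shared an identical run of 297 of its 300 bases with that of Hba-a1, counting the 50 bases after the start. The beta-globin windows differed more, with a longest identical run of 14 bases. All 4 globin windows held each of the 4 motifs at least once. The Alas2 window held 1 GATA core and 3 Klf1 cores, all on the opposite strand, and neither of the other motifs. Hbb-bt had 3 CCAAT matches, of which 2 lie side by side in the run ATTGGCCAAT. Over 32544 RefSeq windows of the same 300 bases, the GATA core was found in 25.3%, the Klf1 core in 57.7%, the CCAAT box in 37.4% and the TATA-like run in 9.82%, while 0.704% held all 4. These are letter matches and not measured binding sites.

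In the deposited annotation (GRCm38), Hba-a1 (ENSMUSG00000069919) lies on chr11:32283511-32284465 and Hba-a2 (ENSMUSG00000069917) on chr11:32296489-32297298, both on the plus strand. Hbb-bs (ENSMUSG00000052305, chr7:103826534-103828096) and Hbb-bt (ENSMUSG00000073940, chr7:103812524-103813996) lie on the minus strand. Alas2 (ENSMUSG00000025270) is on chrX:150547375-150570638, plus strand, and Slc4a1 (ENSMUSG00000006574) on chr11:102348824-102366203, minus strand. The deposited models start upstream of the RefSeq starts used above, by 161 bases for Hba-a1 and 168 bases for Hbb-bs, so the printed stretches reach into those models. Alas2 overlaps Apex2 and Mir3620 on the other strand. Whether the libraries kept the strand of each read is not settled by the protocol, so reads of these neighbours cannot be told apart from those of Alas2, but neither neighbour exceeded 2.35 FPKM in any library.

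The libraries held 14295644 to 22195576 recovered reads. Rspo2 was at 0 FPKM in all 6 control libraries and at 49.9 to 573 FPKM in the 6 Rspo2-AAV libraries. Apoe transcripts were counted at 38.8 to 149 FPKM in controls and 43.1 to 101 FPKM in Rspo2-AAV libraries, and the deposited values do not show which part of the gene they come from. Some libraries stood apart. Control 3 carried Xist, the RNA of the inactive X chromosome, at 41.96 FPKM. Rspo2-AAV 1 carried it at 28.0 FPKM and Rspo2-AAV 2 at 5.57 FPKM, and no other library exceeded 0.0186 FPKM. Ddx3y, a Y-linked gene, was at 0.548 FPKM in Control 3 and 0.0305 FPKM in Rspo2-AAV 1. In the other libraries it was at 7.04 FPKM (Rspo2-AAV 2) to 15.6 FPKM. In Rspo2-AAV 2, 10.5% of reads were mitochondrial against 3.53 to 5.89% elsewhere. Rspo2-AAV 4 drew 7.86% of its reads from the 18 pancreatic acinar genes on the marker list, against 0.706% for Rspo2-AAV 5. Liver lipogenic Scd1 split the libraries by number, at 331 to 541 FPKM in numbers 1 to 3 and 2457 to 3662 FPKM in numbers 4 to 7. Member values below are therefore given over all libraries, within both number sets and without libraries that stand apart, and calls of other genes over all 12 libraries, with the settings that ended them. In bulk tissue, a change in the number of red cells and a change in globin RNA per cell cannot be told apart.

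Globin messenger RNA was higher in the Rspo2-AAV livers. The alpha- and beta-globin genes together, summed over the 4 genes, averaged 108 ± 88.6 FPKM in controls and 604 ± 412 FPKM in Rspo2-AAV livers (SD, n = 6 each), a 5.62-fold ratio of means. In the controls, numbered 1 to 6, the summed values were 77.9, 55.2, 121.8, 280.0, 64.5 and 45.8 FPKM. In Rspo2-AAV 1, 2, 4, 5, 6 and 7 they were 746, 1333, 252.1, 474, 211 and 610.1 FPKM. Rspo2-AAV 1, 2 and 7 were the highest of the 12 libraries, and 5 of the 6 controls lay below every Rspo2-AAV library. Control 4 stood above Rspo2-AAV 4 and 6, so the groups overlapped through 1 control.

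Hba-a1 was the alpha-globin gene with the higher counted level, although the split of shared reads between the copies is uncertain. It ranged from 20.2 to 110 FPKM in controls (median 27.5) and from 88.1 to 615 FPKM in Rspo2-AAV livers (median 226). Its log2 difference, on the log2(FPKM + 0.5) scale used throughout, was 2.54. Hba-a2, a second copy encoding nearly the same chain, was counted far lower. It was at 1.02 to 7.83 FPKM in controls (median 2.30) and 7.52 to 66.2 FPKM after Rspo2-AAV (median 15.9), a log2 difference of 2.62. Both alpha copies were highest in Rspo2-AAV 2. For both, the overlap between groups consisted of Control 4 lying above Rspo2-AAV 6.

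Hbb-bs, the beta-globin gene counted higher, ranged from 21.5 to 143.9 FPKM in controls (median 36.5) and from 101 to 557 FPKM after Rspo2-AAV (median 256), a log2 difference of 2.43. Hbb-bt, the copy counted lower, ranged from 2.87 to 18.5 FPKM in controls (median 4.97) and from 14.3 to 94.4 FPKM after Rspo2-AAV (median 37.9), a log2 difference of 2.52. Both beta copies were highest in Rspo2-AAV 2, followed by Rspo2-AAV 1. Control 4 lay above Rspo2-AAV 4 and 6 for both.

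**Figure D1:**
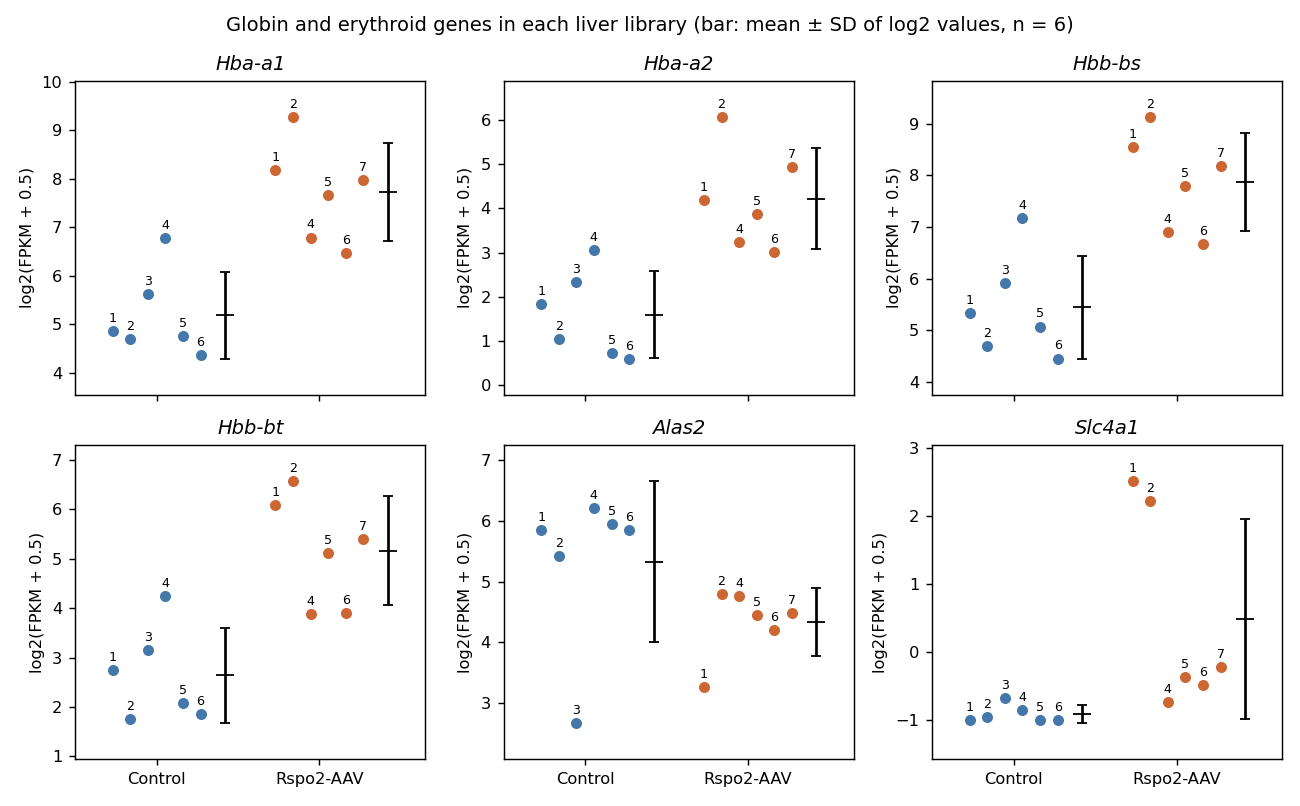
Level of each of the 6 genes in each library, as log2(FPKM + 0.5) on the vertical axis, with controls in blue, Rspo2-AAV in orange, the label number beside each point and bars for the mean ± SD of the log2 values (n = 6). The 4 globin genes share a pattern with Control 4 above the other controls, Alas2 is lower in most Rspo2-AAV libraries and in Control 3, and Slc4a1 stands above 4 FPKM in Rspo2-AAV 1 and 2 alone.

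None of these 6 genes separated the groups in all 12 libraries, where 1.62% of tested genes did so in the higher and 1.62% in the lower direction. Within numbers 1 to 3 (3 controls and 2 Rspo2-AAV libraries), the 4 globin genes and Slc4a1 were higher without overlap, against 10.8% of all tested genes. Within numbers 4 to 7 (3 controls and 4 Rspo2-AAV libraries), Slc4a1 was higher without overlap, against 14.8% of all genes, and Alas2 lower without overlap, against 14.2%. Without Control 4, the 4 globin genes no longer overlapped, against 1.91% of all genes. The rule that chose the members used these contrasts, so the counts are not evidence about them.

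The globin difference had the same direction in both number sets but not the same size. The log2 difference of the summed globins reached 3.62 in the libraries numbered 1 to 3, against 1.90 in those numbered 4 to 7. Without Rspo2-AAV 1 and 2 it was 2.01, from a mean of 387 ± 188 FPKM (SD, n = 4) against the 6 controls. Without Control 4 it was 2.85. The libraries that carried Xist, Control 3 and Rspo2-AAV 1 and 2, are all in numbers 1 to 3. Their part in the difference between the number sets was not tested. The Rspo2-AAV livers with more globin mostly had a smaller acinar share, and any relation between these was not tested. Rspo2-AAV 1 and 2, with 0.00108% and 0.00170% acinar reads, held 746 and 1333 FPKM of globin. The least globin, 211 FPKM, was in Rspo2-AAV 6, with 0.0810%. Rspo2-AAV 5 went against the order, with a larger acinar share, 0.706%, and more globin, 474 FPKM, than Rspo2-AAV 6. Rspo2-AAV 7, with 0.00829% acinar reads, held 610.1 FPKM of globin, and Rspo2-AAV 4, with 7.86%, held 252.1 FPKM.

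All 4 globin genes varied together from library to library. Pearson correlations of their log2 levels over the 12 libraries ran from 0.97 to 0.99, and from 0.92 to 0.98 after the group mean was taken out. The 12 points share library composition, and the copies share reads, so no p is attached. Of the 100-base windows in the annotated Hba-a1 transcripts, 63.3% also occur in Hba-a2, and 79.5% of those of Hba-a2 occur in Hba-a1. For Hbb-bs and Hbb-bt the shares are 49.7% and 54.8%. The split of reads between copies is therefore uncertain, whereas alpha and beta chains are encoded by clearly different sequences.

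The balance of beta to alpha chains moved little while the total ranged from 45.8 to 1333 FPKM. Summed beta-globin FPKM over summed alpha-globin FPKM was 1.28 ± 0.147 in controls and 1.18 ± 0.157 in Rspo2-AAV livers (SD, n = 6 each), with ranges of 1.06 to 1.45 and 0.956 to 1.44 that overlapped almost entirely. Hba-a1 over Hba-a2 ranged from 9.40 to 22.7 in controls and from 8.25 to 16.4 in Rspo2-AAV livers. Hbb-bs over Hbb-bt ranged from 6.41 to 8.96 and from 5.54 to 8.34. All these are ratios of FPKM, which is scaled by gene length.

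Apart from a few reads of Hbq1b, the other globin genes named here did not accompany the adult ones. Of the 11 listed, 9 were in the table, and the embryonic genes Hbb-y, Hbb-bh1, Hbb-bh2 and Hba-x were at 0 reads in all 12 libraries. Hbq1b, a theta-like alpha-family gene chosen here after its values were seen, was at 0.328 FPKM in Rspo2-AAV 1, 0.359 in Rspo2-AAV 2 and 0 in the other 10. These were 6 and 4 reads, in the libraries with the highest summed globins. Cygb, cytoglobin of stellate and other connective cells, was the 1 listed globin above the filter. Cygb averaged 6.32 ± 2.12 FPKM in controls and 4.01 ± 0.578 after Rspo2-AAV (SD, n = 6 each), a log2 difference of -0.55 ± 0.19 (SE) that did not pass the test (limma adjusted p = 0.112). In numbers 4 to 7 alone, Cygb was called lower (log2 change -0.94 ± 0.14, limma adjusted p = 0.00703). Ngb, the nerve cell globin, stayed at 0.128 ± 0.0893 and 0.167 ± 0.0885 FPKM, below the filter.

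Slc4a1 showed a different pattern from the globins, with nearly all of its reads in a pair of libraries. Its FPKM in Control 1 to 6 was 0, 0.0111, 0.123, 0.0529, 0 and 0. In Rspo2-AAV 1, 2, 4, 5, 6 and 7 it was 5.19, 4.18, 0.0993, 0.269, 0.211 and 0.356. As read counts, Rspo2-AAV 1 had 641 and Rspo2-AAV 2 had 314, with between 8 and 26 in Rspo2-AAV 4 to 7, and at most 11 in any control. The gene passed the filter through Rspo2-AAV 1 and 2, since its mean over the other 10 libraries was 0.112 FPKM. Its log2 difference was 1.40 over all libraries and 0.46 without Rspo2-AAV 1 and 2. For numbers 1 to 3 it was 3.25, and for numbers 4 to 7 it was 0.49. At these low levels the size depends on the pseudocount, with a log2 difference of 2.65 at a pseudocount of 0.1, 0.99 at 1 and 5.15 by limma-voom on reads. The ratio of mean FPKM was 55.1, and 7.49 without Rspo2-AAV 1 and 2. The groups overlapped through Control 3, which lay above Rspo2-AAV 4.

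Set against globin reads in the same library, Slc4a1 was enriched in Rspo2-AAV 1 and 2. It made up 4.20% of globin plus Slc4a1 reads in Rspo2-AAV 1 (exact Clopper-Pearson 95% interval 3.89 to 4.53%) and 1.93% in Rspo2-AAV 2 (1.73 to 2.15%). In Rspo2-AAV 4 to 7 the share ran from 0.246% (0.106 to 0.485%) to 0.623% (0.349 to 1.03%). Control 3 had 0.632% (0.316 to 1.13%) and Control 4 had 0.119% (0.0385 to 0.277%). Controls 1, 5 and 6 had no Slc4a1 read, which at 3 counts allows shares of up to 0.375, 0.420 and 0.437%. These intervals and limits cover counting error only. The intervals of Rspo2-AAV 1 and 2 lie above those of the other 10 libraries, and those of Rspo2-AAV 4 to 7 overlap that of Control 3. Rspo2-AAV 7, for example, had 7082 globin reads and 26 Slc4a1 reads, while Rspo2-AAV 1 had 14627 and 641.

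**Figure D2:**
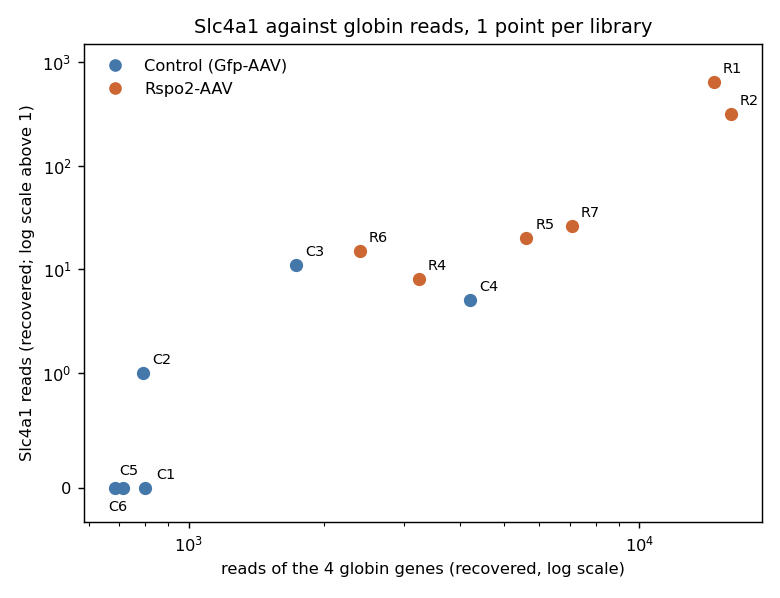
Slc4a1 reads (vertical axis, log scale above 1 read) against reads of the 4 globin genes (horizontal axis, log scale), 1 point per library, controls (C) in blue and Rspo2-AAV (R) in orange with label numbers. Rspo2-AAV 1 and 2 lie above 300 Slc4a1 reads and the other 10 libraries at 26 or fewer, while globin reads run from 686 to 15945.

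The genes whose pattern was most like Slc4a1, looked up after its values were seen, were chiefly immunoglobulin segments. Of the 10 with the highest correlation over the 12 libraries, 9 are reported here, at r = 0.96 to 0.98 against a median of -0.02 over all tested genes. They were the antibody gene segments Igkv6-15, Igkv4-55, Ighv10-1, Ighv1-47, Igkv4-59 and Igkv4-72, the granulocyte gene Camp and the sulfotransferase genes Sult2a3 and Sult2a2. All 9 averaged at most 0.212 FPKM in controls, so they reached the filter through the Rspo2-AAV group. There the SD of each exceeded its mean, so these correlations rest on a few libraries and are a description.

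Other genes of the red cell surface and skeleton divided the same libraries from the rest. Of the 20 genes in the membrane and surface list, 17 to 18 reached 0.2 FPKM in Rspo2-AAV 1 and 2, 5 to 6 in Rspo2-AAV 4 to 7 and 5 to 6 in the controls. The 3 genes named next were chosen after their values were seen. Rhag, the Rh-associated glycoprotein, was at 0.932 and 0.724 FPKM in Rspo2-AAV 1 and 2 and at most 0.0294 FPKM elsewhere. Kel, the Kell blood group protein, was at 0.743 and 0.728 FPKM and at 0 in every control. Epb42, the skeletal protein 4.2, was at 0.373 and 0.517 FPKM and at most 0.0202 FPKM in the other 10 libraries. These are low levels, but they recurred gene after gene in the same pair of libraries.

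Over the 12 libraries, 6 of the 20 membrane and surface genes passed the filter. None of the 6 was called higher and 1 was called lower at a limma adjusted p under 0.05, while 5.20% of the 13447 tested genes were called, 2.55% higher and 2.65% lower. With no adjustment, 1 of the 6 was higher and 1 lower at p under 0.05, and limma-voom also called 0 higher and 1 lower. Their median log2 difference was -0.09, against 0.0025 over all tested genes. The gene called lower was Art4, the Dombrock blood group enzyme, at 1.77 ± 0.338 FPKM in controls and 0.994 ± 0.400 FPKM after Rspo2-AAV (SD, n = 6 each), a log2 change of -0.63 ± 0.17 (SE, adjusted p = 0.0471). Leaving out any library but Rspo2-AAV 2 ended that call (log2 change -0.75 to -0.54, adjusted p 0.00700 to 0.106).

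**Figure D3:**
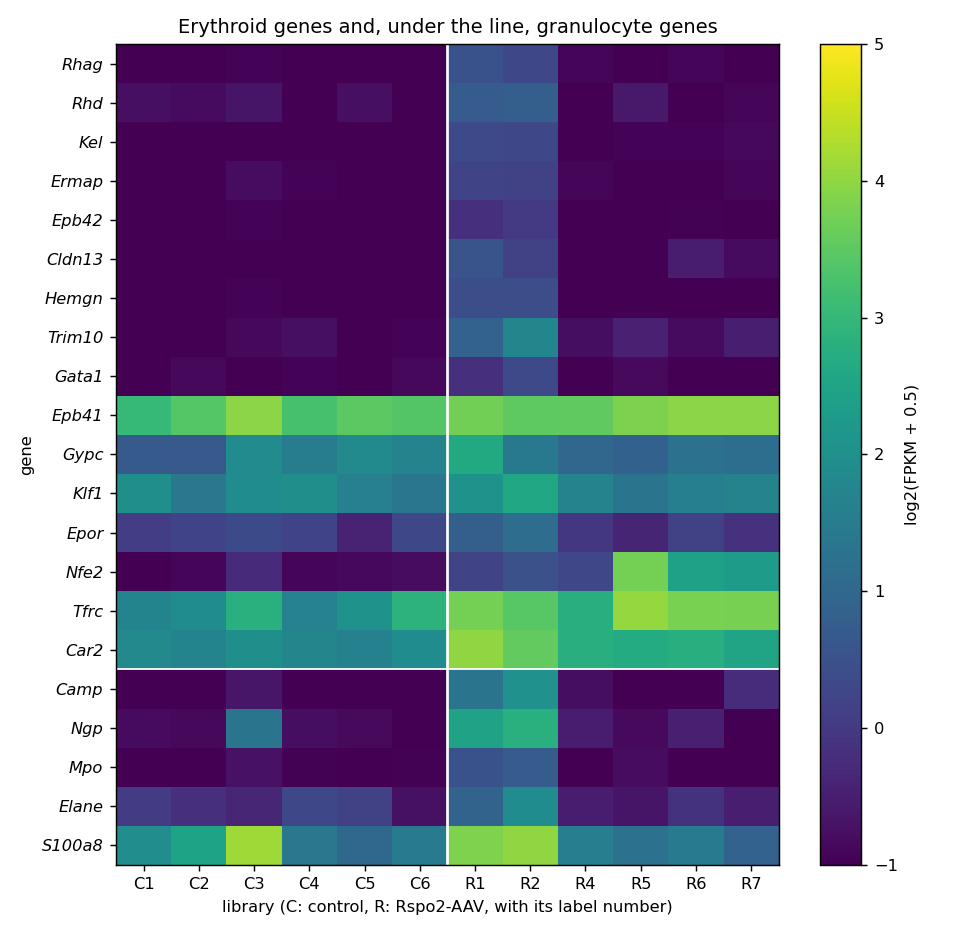
Heat map of log2(FPKM + 0.5) for 16 erythroid genes (rows above the line) and 5 granulocyte genes (below it) in the 12 libraries (columns, C for control and R for Rspo2-AAV). Most of these genes were chosen after their values were seen. Surface genes from Rhag to Cldn13 and the erythroid genes Hemgn, Trim10 and Gata1 stand out in R1 and R2, as do Camp, Ngp, Mpo and Elane, whereas Nfe2 is high in R5, R6 and R7.

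Some further genes of erythroid precursors were highest in the same pair. Gata1, the master factor of the red lineage, was at 0.390 and 0.748 FPKM in Rspo2-AAV 1 and 2 and at most 0.0539 FPKM in the other 10. Hemgn, hemogen, was at 0.868 and 0.830 FPKM against at most 0.0218. Trim10, expressed as erythroblasts mature, was at 1.34 and 2.90 FPKM against at most 0.234. These 3 were also chosen after their values were seen. Klf1, an activator of adult beta-globin, was present in all libraries and likewise highest in the pair, at 3.70 and 5.45 FPKM against 1.98 to 3.48 FPKM in the other 10. Epor, the erythropoietin receptor, was at 1.27 and 1.70 FPKM in the pair and at most 0.771 FPKM elsewhere. Neither passed the test between groups (limma adjusted p = 0.812 for Klf1 and 0.802 for Epor). Klf1 and Epor were likewise chosen after their values were seen. Across the whole list of erythroid transcription factors and progenitor genes the libraries differed less, with 13 to 14 of 16 genes at 0.2 FPKM or more in Rspo2-AAV 1 and 2, 12 in Rspo2-AAV 4 to 7 and 10 to 12 in controls.

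From that list, 11 of 16 were tested, 2 rose and none fell (limma-voom also 2 and 0, and 4 and 0 at an unadjusted p under 0.05), with a median log2 difference of 0.25. Tfrc, the transferrin receptor that brings iron into red cell precursors and into growing cells generally, rose from 4.29 ± 1.88 to 11.99 ± 3.31 FPKM (SD, n = 6 each). Its log2 change was 1.42 ± 0.26 (SE, adjusted p = 0.00864), and it remained called without each library in turn. Nfe2, the p45 subunit of a factor of erythroid cells and megakaryocytes, averaged 0.0863 ± 0.121 FPKM in controls and rose to 4.08 ± 4.71 FPKM. The log2 change of Nfe2 was 2.37 ± 0.54 (adjusted p = 0.0260). Nfe2 reached the filter only through Rspo2-AAV libraries, the group where it is high, and with no filter it was not called (adjusted p = 0.0667), so its call is no independent evidence of its pattern.

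Nfe2 separated the groups fully, but its order among the Rspo2-AAV livers was not that of the globins or of Slc4a1. It was at 0.676, 0.893 and 0.711 FPKM in Rspo2-AAV 1, 2 and 4 and at 12.8, 4.92 and 4.43 FPKM in Rspo2-AAV 5, 6 and 7. The controls lay between 0 and 0.330 FPKM, with Control 3 the highest. Its call ended without Control 2, 4, 5 or 6 or Rspo2-AAV 6 or 7, with log2 changes of 1.94 to 2.64 and adjusted p of 0.0144 to 0.0657 over the 12 fits.

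Among the genes of red cell cytosol and maturation, 14 of 19 were tested, 2 rose and none fell, with a median log2 difference of 0.06. At an unadjusted p under 0.05 the counts were 4 and 1, and limma-voom called 2 and 1. Car2, carbonic anhydrase 2, which speeds carbon dioxide exchange in red cells and other tissues, rose from 3.00 ± 0.318 to 8.46 ± 4.07 FPKM (SD, n = 6 each). Its log2 change was 1.25 ± 0.22 (SE, adjusted p = 0.00763), and the call remained without each library in turn. Its values were 15.5 and 11.3 FPKM in Rspo2-AAV 1 and 2 and 5.19 to 6.44 FPKM in Rspo2-AAV 4 to 7, all above the control maximum of 3.44 FPKM. Without Rspo2-AAV 1 and 2 its log2 change was 0.89.

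Blvrb, a biliverdin and flavin reductase abundant in red cells and liver, rose from 40.6 ± 9.80 to 63.3 ± 14.3 FPKM (log2 change 0.64 ± 0.17, adjusted p = 0.0495). Leaving out any library but Control 1 ended that call (log2 change 0.53 to 0.75, adjusted p 0.0175 to 0.106), as did leaving out Rspo2-AAV 1 and 2 together (log2 change 0.48). Car1, the carbonic anhydrase that is most abundant in mature red cells, was not higher, at 5.38 ± 2.06 FPKM in controls and 3.70 ± 1.69 FPKM after Rspo2-AAV (log2 difference -0.46 ± 0.31, adjusted p = 0.417). For numbers 4 to 7 alone it was called lower (log2 change -1.14 ± 0.17, limma adjusted p = 0.00638). Car1 was chosen after its values were seen.

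Over the 7 erythroid and heme lists together, 58 of 94 genes were tested, 4 rose and 2 fell, which is 10.3% against the 5.20% of all genes. The median log2 difference was 0.05. The 4 include Nfe2, which reached the filter only through Rspo2-AAV libraries, and the 2 include Marco, also a Kupffer cell marker. The lists were chosen with earlier results of these data known, so the difference in shares is no evidence of enrichment. In the libraries numbered 4 to 7 alone, the lists had 5 genes higher and 7 lower, where 6.52% of all tested genes were called higher and 7.00% lower. Genes tested in that set were 5 of membrane and surface, 1 other globin, 13 of cytosol and maturation and 10 transcription factors and progenitor genes. A further 12 of heme synthesis, 11 of hemoglobin and heme clearance and 2 hormones were tested.

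Alas2 went the other way from the globins. Its FPKM in Control 1 to 6 was 57.3, 42.2, 5.90, 73.8, 60.9 and 57.2. In Rspo2-AAV 1, 2, 4, 5, 6 and 7 it was 9.17, 27.3, 26.7, 21.4, 18.0 and 21.9. All Rspo2-AAV livers lay below 5 of the 6 controls, and Control 3 was the lowest of the 12. The group means were 49.5 ± 23.6 and 20.8 ± 6.66 FPKM (SD, n = 6 each), a log2 difference of -0.99. For numbers 1 to 3 it was -0.61, and for numbers 4 to 7 it was -1.52.

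The lowest Alas2 values, in Control 3 and Rspo2-AAV 1, came from the libraries with the highest Xist, 41.96 and 28.0 FPKM. Without Control 3 and Rspo2-AAV 1 and 2, the groups did not overlap, at 58.3 ± 11.3 FPKM (SD, n = 5) and 22.0 ± 3.58 FPKM (SD, n = 4), a log2 difference of -1.38. In these 9 libraries, 8.18% of all tested genes were lower without overlap.

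Alas2 did not track the globin genes although it is classed as erythroid. Its log2 level correlated with that of the summed globins at r = -0.43 over the 12 libraries and at -0.09 once the group means were removed, given as a description. In Controls 1, 2, 5 and 6 there were 2.28 to 3.84 Alas2 reads for each globin read. Control 4 had 0.814, Control 3 had 0.150 and the Rspo2-AAV livers had 0.0380 to 0.326. Rspo2-AAV 2, with the highest globin level, and Rspo2-AAV 4, with a globin level near that of Control 4, had almost the same Alas2 level.

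**Figure D4:**
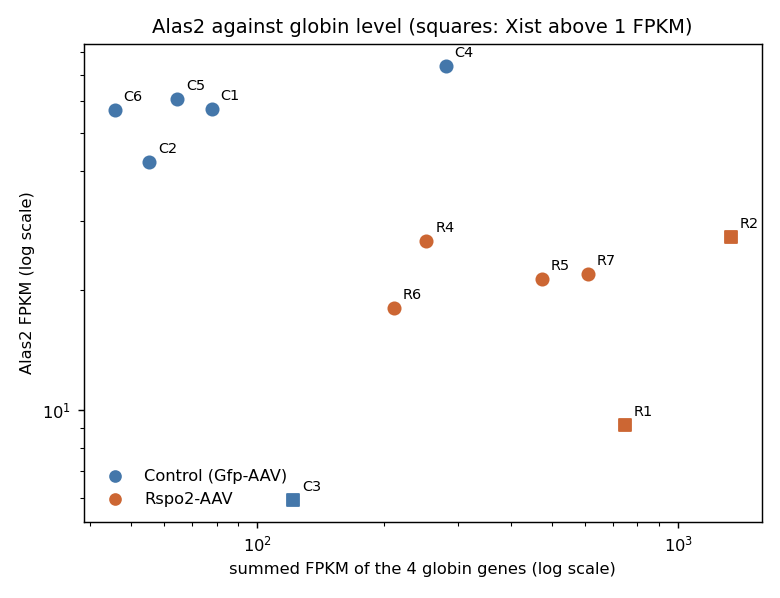
Alas2 FPKM (vertical axis, log scale) against summed globin FPKM (horizontal axis, log scale), 1 point per library, controls (C) in blue and Rspo2-AAV (R) in orange, with squares for libraries with Xist above 1 FPKM. Controls other than C3 lie at 42.2 to 73.8 FPKM of Alas2, and Rspo2-AAV libraries at 9.17 to 27.3 FPKM. C4, the control with the most globin, also has the most Alas2.

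The genes whose pattern was most like Alas2, looked up after its values were seen, were Aox1 (r = 0.97 over 12 libraries), which encodes an aldehyde oxidase, Ociad2 (0.96), Rfc5 (0.95), the liver carboxylesterase gene Ces1f (0.94) and Car3 (0.93), a carbonic anhydrase of liver, fat and muscle. The median correlation over all tested genes was near 0, at -0.0028. None of these 5 passed the test between groups in limma (adjusted p 0.219 to 0.600).

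The rest of the heme pathway showed no called change. All 12 genes of the heme synthesis list were tested, and none was called by limma or by limma-voom over the 12 libraries, with a median log2 difference of 0.06. At an unadjusted p under 0.05, 2 were higher and none lower. Limma also called none of them for numbers 4 to 7 or for numbers 1 to 3, where 0.105% of all genes were called, and 3 and 1 of them had an unadjusted p under 0.05. Alas1, the liver form of the first enzyme, was at 118 ± 49.8 FPKM in controls and 139 ± 76.7 FPKM after Rspo2-AAV (SD, n = 6 each, log2 difference 0.14 ± 0.36, adjusted p = 0.872). Tmem14c, a mitochondrial carrier of a heme precursor, was at 132 ± 29.0 and 139 ± 26.7 FPKM (adjusted p = 0.846). Fech, the ferrochelatase that places iron into heme, was at 55.2 ± 6.81 and 52.8 ± 4.85 FPKM (adjusted p = 0.807), named after its values were seen.

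Among genes that clear hemoglobin and heme, all 12 were tested, 1 fell and none rose, with a median log2 difference of -0.23. At an unadjusted p under 0.05, 4 were lower and 1 higher, and limma-voom called 2 lower and 0 higher. The gene that fell was Marco, a scavenger receptor of macrophages, at 38.2 ± 22.1 FPKM in controls and 7.57 ± 4.31 FPKM after Rspo2-AAV (SD, n = 6 each). Its log2 change was -2.28 ± 0.42 (SE, adjusted p = 0.00864). Its groups did not overlap, and the call remained without each library in turn. Marco is as much a Kupffer cell marker as a clearance gene, and 3 of the 10 Kupffer cell genes fell in this contrast, Marco included (limma-voom also 3). None of the 10 had a positive log2 difference, their median was -0.82, and 9 were lower at an unadjusted p under 0.05, which 2891 of the 13447 tested genes reached in either direction. Without Rspo2-AAV 1 and 2, 8 of 9 tested Kupffer cell genes were called lower, against 5.07% of all genes. Clec4f, another of these, fell by 1.40 ± 0.30 on the log2 scale (adjusted p = 0.0177), a call that ended without Rspo2-AAV 6 (largest adjusted p 0.0502). Hpx, the heme-binding plasma protein, Hmox1, the heme-degrading enzyme, and Slc40a1, the iron exporter, had log2 differences of -0.79, -0.48 and -0.98 and adjusted p of 0.0847, 0.125 and 0.051. These 3 were named after their values were seen. Slc40a1 was called lower in numbers 4 to 7 (log2 change -1.21, limma adjusted p = 0.00537) and by limma-voom over all libraries (adjusted p = 0.0489). Without Rspo2-AAV 1 and 2, Slc40a1 and Hpx were called lower by limma (adjusted p = 0.0242 and 0.0454).

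None of the hormones that drive red cell or platelet formation was called by limma or limma-voom (2 tested, 1 of them at an unadjusted p under 0.05). Epo was at 0 in 11 libraries and at 0.235 FPKM in Rspo2-AAV 7, and Erfe, the iron-regulating hormone of erythroblasts, never exceeded 0.0732 FPKM. Epo and Erfe were named after their values were seen. Thpo, the platelet hormone of the liver, was at 7.88 ± 1.25 and 11.1 ± 2.24 FPKM (log2 difference 0.46 ± 0.15, adjusted p = 0.0884). Kitl, stem cell factor, was at 0.727 ± 0.237 and 0.662 ± 0.303 FPKM (adjusted p = 0.829).

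Summed markers of neutrophils, platelets and B cells were high in Rspo2-AAV 1 and 2, the libraries with the erythroid surface genes, and those of T and NK cells were not. The 12 neutrophil genes summed to 58.3 to 67.0 FPKM in Rspo2-AAV 1 and 2 and to 8.26 to 11.6 FPKM in Rspo2-AAV 4 to 7, with 11 and 5 to 6 of them at 0.2 FPKM or more. In controls the sum ran from 6.90 to 62.6 FPKM, the top value from Control 3, with 4 to 10 genes detected. Genes of granulocyte precursors, chosen after their values were seen, were lower in Control 3 than in the pair. Camp was at 1.99 and 3.61 FPKM in that pair and 0.144 in Control 3, and Elane at 1.37 and 3.31 FPKM against 0.278. Ngp, a granule protein gene, was at 4.96 and 6.50 FPKM in the pair and 1.97 FPKM in Control 3, above the 0.225 FPKM that no other library exceeded. The vector effect on Camp was larger in numbers 1 to 3 than in numbers 4 to 7 by 2.31 ± 0.40 on the log2 scale (SE, interaction in limma, adjusted p = 0.0473), where 0.245% of tested genes differed. Camp reached the filter through Rspo2-AAV 1 and 2, so this difference is no independent evidence of its pattern. S100a8 of mature neutrophils, also chosen after its values were seen, was similar in all 3 libraries, at 13.9, 15.7 and 17.2 FPKM.

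Platelet genes summed to 19.9 to 26.6 FPKM in Rspo2-AAV 1 and 2, 6.84 to 8.61 FPKM in Rspo2-AAV 4 to 7 and 6.88 to 15.1 FPKM in controls. B cell genes summed to 18.2 to 22.8 FPKM in Rspo2-AAV 1 and 2, 2.55 to 12.5 FPKM in Rspo2-AAV 4 to 7 and 2.91 to 6.18 FPKM in controls. T and NK cell genes summed to 4.90 to 6.37 FPKM in Rspo2-AAV 1 and 2, 2.54 to 6.82 FPKM in Rspo2-AAV 4 to 7 and 5.24 to 7.52 FPKM in controls. None of the 6 platelet, 7 neutrophil or 5 B cell genes tested was called over all libraries by limma or limma-voom, and at an unadjusted p under 0.05 the counts were 0, 0 and 3, the 3 being higher. Of 4 tested T and NK cell genes 1 fell, Gzma (log2 change -0.68 ± 0.17, adjusted p = 0.0397), and none of 9 endothelial, 18 acinar or 3 cycling cell genes was called by limma or limma-voom, with 1, 17 and 0 at an unadjusted p under 0.05. Of the 18 acinar genes, however, 7 were called higher in numbers 4 to 7 and 17 without Rspo2-AAV 1 and 2, where 5.01% of all genes were called higher. The Gzma call ended without any of Controls 2, 4, 5 and 6 or Rspo2-AAV 4 to 7 (adjusted p 0.0302 to 0.0995 over the 12 fits). Of 9 hepatocyte genes 1 rose, Cyp2e1 (log2 change 0.88 ± 0.22, adjusted p = 0.0381), a call that held without Rspo2-AAV 2 or 5 and ended without any other single library (adjusted p 0.0259 to 0.0919). In Rspo2-AAV 4 to 7 the neutrophil and platelet sums did not exceed those of the highest control, and the B cell sum did in part. The summed globins, at 211 to 610.1 FPKM, likewise exceeded the highest control, at 280.0 FPKM, only in part. The part of blood cells other than red cells in the values of Rspo2-AAV 1 and 2 was not tested.

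Several of the calls named above depended on the setting. In the libraries numbered 4 to 7 alone, Tfrc, Nfe2, Car2, Blvrb, Art4, Marco and Clec4f were called, while Gzma (adjusted p = 0.0544) and Cyp2e1 (adjusted p = 0.133) were not. In numbers 1 to 3 limma called none of these genes, and Nfe2 did not reach the filter. Without Rspo2-AAV 1 and 2, Cyp2e1 (adjusted p = 0.0573) and Blvrb (adjusted p = 0.0873) were not called. With no filter on low values, Art4, Nfe2, Blvrb, Gzma and Cyp2e1 were not called (adjusted p 0.0667 to 0.374). With TPM scaling, Blvrb, Gzma and Cyp2e1 were not (adjusted p 0.0514 to 0.0995), and limma-voom did not call Gzma (adjusted p = 0.0615). Cygb, Car1 and Slc40a1, which limma did not call over all 12 libraries, were called lower in numbers 4 to 7. There, 7.00% of all tested genes were called lower.

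The 10 genes whose log2 level was most like that of the summed globins had correlations of 0.87 to 0.91 over the 12 libraries, against a median of -0.01 over all tested genes. Of these, 9 are reported here: Dcp1b, Emp2, Atg4d, Slc17a1, Dhps, Rbm22, Gm10157, Gm29107 and Cep57. None of the 9 is on the erythroid lists. Emp2, an epithelial membrane protein, averaged 0.856 ± 0.372 FPKM in controls and 2.81 ± 0.874 FPKM after Rspo2-AAV (SD, n = 6 each) and rose by 1.30 ± 0.20 on the log2 scale (SE, adjusted p = 0.00379), and the predicted gene Gm29107 also passed (log2 change 1.23 ± 0.28, adjusted p = 0.0262). The other 7 did not pass. Gm29107 averaged 0.0888 FPKM in controls and 0.970 FPKM after Rspo2-AAV, so it reached the filter only through the group where it is high. All were picked for following the globins, which differ between the same groups, so these calls are no independent evidence.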

How the data were processed

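RNA of 12 liver samples, 6 per vector, was sequenced after poly-T bead selection, and samples had passed a threshold of RNA integrity, per the labels' protocols. The authors deposited FPKM values, made on the GRCm38 (mm10) build with DESeq2 1.20.0, HISAT2 2.0.5 and featureCounts 1.5.0-p3, whose roles are not stated, per the submitters' processing notes. Each FPKM times gene length gave whole reads within 0.01 in 100% of values. The library sizes behind the FPKM were already proportional to median-of-ratios size factors.

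Groups were compared with limma 3.58.1 in R 4.3.3 (lmFit, eBayes with trend, two-sided) on log2(FPKM + 0.5) over the 13447 genes averaging at least 0.5 FPKM, without covariates, with Benjamini-Hochberg adjustment and calls at an adjusted p under 0.05. A pseudocount understates changes of low genes. The same fit was checked on simulated data. Because the labels do not call the samples separate animals, p-values reflect only the sample-to-sample spread, which may be technical.

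The members and all gene lists were chosen with earlier results of these data known. Genes were named by a rule: the 6 members, Rspo2 and Apoe, up to 4 called genes by smallest p from each of 7 erythroid and heme lists (otherwise the 2 with the highest mean), the 10 genes most correlated with the summed globins, and up to 2 called genes from each of 9 lists of other cell types. Most other genes are marked as chosen after their values were seen. Alternatives covered scaling, limma-voom on recovered reads with trimmed-mean-of-M scaling, pseudocount, filter, number sets, a replicate block and left-out libraries. A count of 0 was read with a limit of 3 reads, and intervals are exact binomial at 95%. Promoter sequences and annotation came from RefSeq (GRCm38.p6) and, for transcripts, GENCODE M21. Ahsp, Hbb-b1, Hbb-b2 and Tf matched no symbol and were not analysed here, and some list genes are counted but not reported by name.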

Additional observations from a re-analysis of the deposited data

Results flagged for a closer look

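Control 4 lay apart from the other controls in 3 of the 4 globin genes and in their sum, by a gap test within groups of 6 (Dixon's ratio above 0.625). Hba-a1 was at 109.8 FPKM there with the next control at 49.0, Hbb-bs at 143.9 with the next at 60.0, and Hbb-bt at 18.5 with the next at 8.33. The summed globins were at 280.0 FPKM with the next control at 121.8. These 4 values come from the same reads and count as 1 observation. The ratio was taken on FPKM, and a gap on that scale need not be one on the log2 scale, which was not examined.

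Among list genes, Nfe2 stood apart in Control 3, at 0.330 FPKM with the next control at 0.0698, and in Rspo2-AAV 5, at 12.8 FPKM with the next at 4.92. Rspo2-AAV 1 had the lowest Tmem14c of its group, 89.9 FPKM with the next at 138, and the highest Kitl, 1.25 FPKM with the next at 0.734. Control 5 had Alas1 at 213.9 FPKM with the next control at 109.3, and Control 6 had Thpo at 5.48 FPKM with the next at 7.89. In all, 44 groups were examined and 10 had such a sample, where chance alone gives about 1 in 20 if values are normally distributed. FPKM values need not be, so the 10 are not read as an excess.

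The vector effect differed between numbers 1 to 3 and numbers 4 to 7 for Camp and Ccnb2 of the marker lists, by the interaction term of limma. Of the 6 tested erythroid membrane and surface genes, 1 also differed, with the effect higher in numbers 1 to 3, against 0.245% of all tested genes. That gene is counted but not reported by name. The difference of log2 effects was 2.31 ± 0.40 (SE) for Camp, an antimicrobial peptide of granulocyte precursors (adjusted p = 0.0473) and 1.94 ± 0.33 for Ccnb2, a cyclin of dividing cells (adjusted p = 0.0473). Camp was tested only because its levels in Rspo2-AAV 1 and 2 lifted it over the filter. The number sets hold 2 and 4 Rspo2-AAV libraries.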

How the results depend on the processing

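The summed globins were higher in Rspo2-AAV libraries under all 25 alternatives run, by 1.90 to 3.62 on the log2 scale (main value 2.51), with 3.62 in numbers 1 to 3 only and 2.23 to 2.85 without 1 library. No called result changed direction. Over all tested genes, 343 were called higher and 356 lower. TPM scaling gave 200 and 191, no filter 195 and 216, numbers 4 to 7 only 872 and 936, and numbers 1 to 3 only 14 and 0 (limma, with 972 genes at an unadjusted p under 0.05). Without Control 3 and Rspo2-AAV 1 and 2 the counts were 798 and 908. They were 117 and 119 when Rspo2-AAV 4 and 5 were left out. An alternative chosen after seeing the data, without Rspo2-AAV 1 and 2, gave 670 and 678. Leaving out 1 library gave 162 to 420 higher and 170 to 496 lower, with fewer calls by over 1.5 times without Control 2, 4, 5 or 6 or Rspo2-AAV 5, 6 or 7. Of the erythroid and heme list genes, 4 were called higher and 2 lower. Higher calls numbered 2 with no filter and 1 in numbers 1 to 3. Lower calls numbered 4 by limma-voom, 1 with no filter, 0 in numbers 1 to 3, 7 in numbers 4 to 7, 5 without Control 3 and Rspo2-AAV 1 and 2, and also 5 if Control 3 was kept. They numbered 1 without Rspo2-AAV 4 and 5. Leaving out 1 library gave 2 to 4 higher (2 without Control 2, 4, 5 or 6 or Rspo2-AAV 6 or 7) and 1 to 4 lower (4 without Rspo2-AAV 2, and 1 without Control 2, 4, 5 or 6 or Rspo2-AAV 4, 5, 6 or 7). A replicate block on the 5 shared numbers gave 149 and 159 calls over all genes and 2 and 1 in the lists, where the same 10 libraries without the block, added after seeing the data, gave 292 and 342, and 2 and 1. Same-numbered libraries correlated at -0.25 to 0.16 in their deviations from group means, and 1 of the 5 numbers matched its own best, so the numbers were not read as pairs. The cause of these shifts was not tested, beyond the smaller numbers of libraries. Depth limits Slc4a1 and the surface genes, which had at most 26 reads of Slc4a1 outside Rspo2-AAV 1 and 2.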
